A study of Mus musculus with 28 samples.

Results

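Newborn mouse lungs lacking NRas were set against control lungs, both exposed before birth to N-acetyl cysteine (NAC), to ask which genes differ when NRas is missing under this antioxidant. The comparison holds the 3 arrays labelled NRas-KO with NAC and the 4 arrays labelled Control with NAC, that is 7 of the 28 arrays of the study, across all 22180 genes that a probe set names with a single symbol. Each array held RNA of whole lung from 1 animal at postnatal day 0, and NAC at 0.5% was given to the pregnant females throughout pregnancy. The groups used here are NRas-KO+NAC (n = 3), DKO+NAC (n = 4, lacking HRas and NRas), HRas-KO+NAC (n = 3), Control+NAC (n = 4), and the untreated NRas-KO (n = 3) and Control (n = 3). Values are log2 levels made by RMA (robust multi-array average), differences are log2 fold changes of NRas-KO+NAC minus Control+NAC unless said otherwise, and genes were called where limma's p, adjusted over all 22180 genes by Benjamini-Hochberg, was under 0.05. The strain, the sexes, how the knockouts were made and which exons of Nras they lack were not given in the sources used here, and a treatment note names fewer NAC samples than the sample labels do. The sample labels were followed.

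NRas is a Ras protein, a small GTPase that passes signals from receptor tyrosine kinases to the RAF, MEK and ERK kinases and to PI3 kinase when it holds GTP. ERK activity induces its own inhibitors, such as the Sprouty and Spred proteins, and drives cells into the division cycle. In the lung this pathway acts downstream of FGF receptors during branching and alveolar epithelial maturation. NAC is a cysteine donor for glutathione, the main thiol antioxidant of cells.

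The lung label was checked on its markers. Surfactant protein C (Sftpc), made by alveolar type 2 cells, lay at 13.10 to 13.17 on the NRas-KO+NAC arrays and at 13.03 to 13.15 on the Control+NAC arrays. Genes of neighbouring tissue varied between arrays within both groups. Albumin (Alb, a liver protein) was at 8.14, 10.25 and 6.75 in NRas-KO+NAC and at 8.22, 11.66, 6.92 and 6.56 in Control+NAC, so replicate 2 of each group held the most. Sample titles end in an animal code whose meaning is not given. The 3 NRas-KO+NAC animals had the code starts T317, T195 and T453, while Control+NAC replicates 1 to 3 all had T445 and replicate 4 had T453, so the code start is shared by the groups in 1 array each. Xist, the RNA of the inactive X chromosome, was high in NRas-KO+NAC replicate 2 (10.96) and in Control+NAC replicates 1 and 4 (10.91 and 10.83) and at 4.02 to 4.27 and 4.10 to 4.16 on the other arrays, so both groups held animals of both sexes.

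Nras, on chromosome 3 and measured by a single probe set, read 7.56, 7.74 and 7.80 on the NRas-KO+NAC arrays, against 8.21, 8.36, 8.47 and 8.27 on the Control+NAC arrays. All 3 knockout arrays lay below all 4 controls. The difference was -0.63 ± 0.11 (SE, limma), with a 95% interval of -0.86 to -0.39. Its unadjusted p of 9.7e-06 was among the 2 smallest of the table, yet the adjusted p was 0.11, and Nras was not called. In the untreated arm the NRas-KO minus Control difference was -0.55, and the difference between the arms was -0.08 ± 0.17 (SE, limma interaction, unadjusted p = 0.65). The DKO+NAC arrays read 7.61, 7.74, 7.56 and 8.08 and the HRas-KO+NAC arrays 8.42, 8.23 and 8.22, so DKO+NAC replicate 4 stood above the other arrays of both NRas-deficient NAC groups. With that array left out of the fit Nras was called (-0.63, limma adjusted p = 0.034). The array is in neither group compared, so the difference stayed the same and only the estimate of the spread changed. Because the array stood out by its own Nras level, this call is no separate support. Nras was called as well when the NAC and untreated differences were averaged (-0.59, adjusted p = 0.0042). Which part of Nras the probes read, and whether it lies in the deleted part, was not given in the sources used here, so the remaining signal cannot be told apart from transcript outside the deletion.

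**Figure D1:**
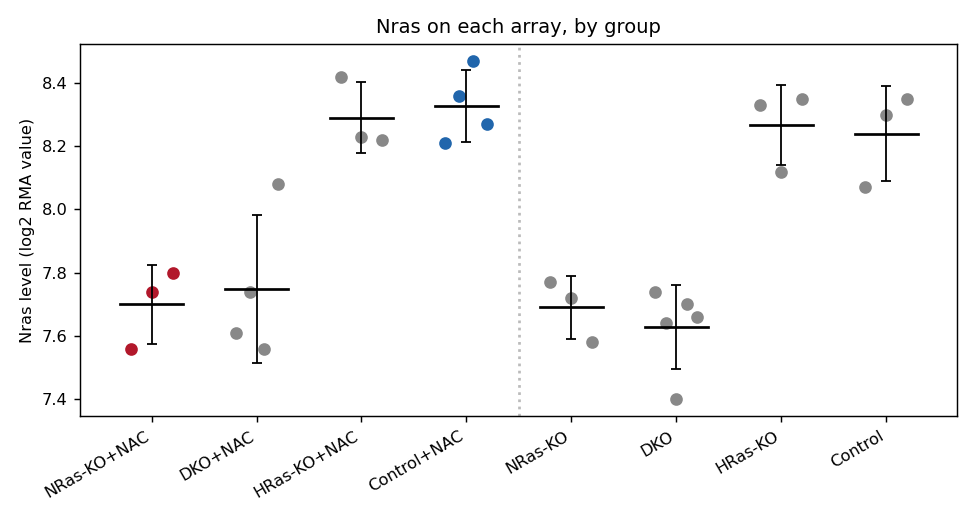
Nras level (vertical axis, log2 RMA value) on each array of the 8 groups, with points for arrays, horizontal bars for group means and error bars for the SD; red marks NRas-KO+NAC and blue Control+NAC, and the dotted line parts the NAC groups from the untreated ones. The 3 NRas-KO+NAC arrays lie between 7.56 and 7.80 and the 4 Control+NAC arrays between 8.21 and 8.47.

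Genes close to Nras on the chromosome were looked at as well. Of the 30 measured genes nearest to Nras in the RefSeq gene order (15 on each side), 3 were higher and 3 lower at an unadjusted p under 0.05, and none was called. Over all genes 5.73% were higher and 4.73% lower at that threshold. The groups did not overlap in 4 of the 30, against 7.91% of all genes. The median difference of the 30 genes was 0.06, and they ran from -0.46 for Phtf1, a membrane protein of the endoplasmic reticulum, to 0.35.

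Across the whole table no gene was called in NRas-KO+NAC against Control+NAC (0 of 22180, 0.0%), and the smallest adjusted p was 0.11. At an unadjusted p under 0.05 there were 2321 genes (10.5%), of which 1271 (5.73%) were higher and 1050 (4.73%) lower. Adjusted p-values under 0.2 belonged to 75 genes. The count of 2321 became 1022 with code start as a fixed block over the NAC arm and 2039 with it as a random block. On the NRas-KO+NAC and Control+NAC arrays alone it became 1704. These fits also differ in precision. With the fixed block Nras kept a difference of -0.61, while its limma adjusted p was 0.99. How much of the count belongs to NRas rather than to code start was not tested. The groups did not overlap in 1754 genes (7.91%), with all knockout arrays above all controls in 846 (3.81%) and below them in 908 (4.09%). Differences were small: the median size was 0.113, and 95% of genes differed by less than 0.359. Over all genes 51.2% of estimates were below 0. The untreated NRas-KO against Control comparison, with 3 arrays a side, gave 231 genes (1.04%) at an unadjusted p under 0.05, and 0 called. Both untreated groups had the code starts C118, H058 and H058, so they were matched for code start, while the NAC groups were not. The counts of the 2 arms are therefore not like for like.

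**Figure D2:**
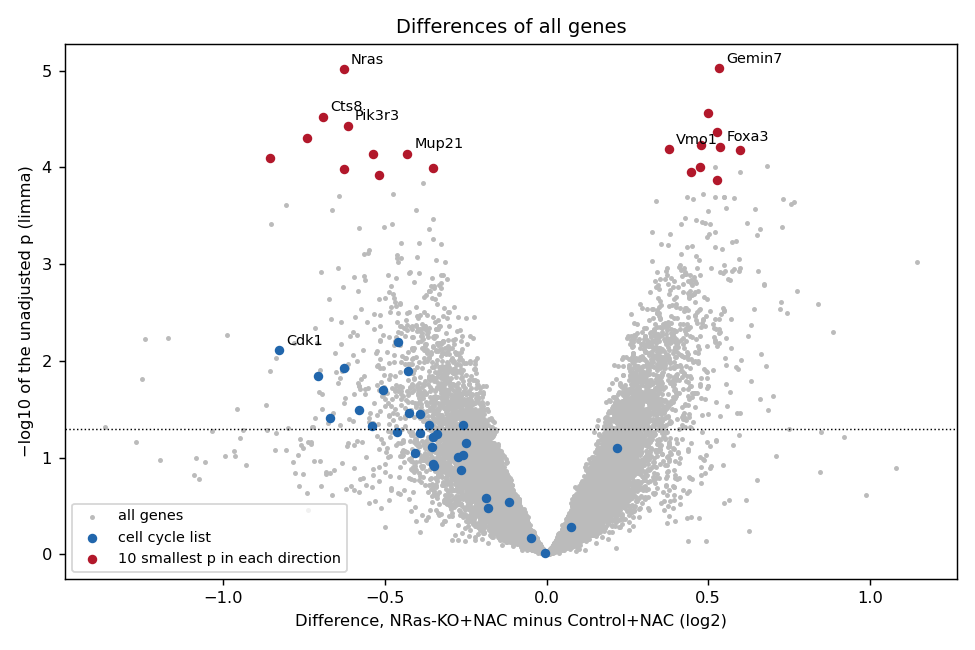
Difference of each of 22180 genes (horizontal axis, NRas-KO+NAC minus Control+NAC, log2) against −log10 of the unadjusted limma p (vertical axis), with a dotted line at the unadjusted threshold of 0.05. Nras and Gemin7 stand highest, and the cell cycle genes (blue) lie almost all left of 0.

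The direction of the small differences was not even across levels. Among the 4436 dimmest genes (below 4.07) 213 were higher and 282 lower at an unadjusted p under 0.05, with a median difference of -0.008. Among the 4436 genes with a mean level between 4.07 and 5.14, 539 were higher and 101 lower in NRas-KO+NAC at an unadjusted p under 0.05. Among the 4436 brightest genes (7.74 and above) 42 were higher and 194 lower. Median differences were 0.068 and -0.052 in those groups of genes. NRas-KO+NAC replicates 2 and 3 had mean deviations of 0.068 and 0.064 from the 28-array mean in the dimmer group of genes, replicate 1 had -0.023, and the controls had -0.050, 0.023, -0.052 and -0.042. After quantile normalization of the deposited values was applied again, the dimmer group gave 334 higher and 254 lower and the brightest 98 higher and 80 lower, so the brightest group then held more higher than lower genes.

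**Figure D3:**
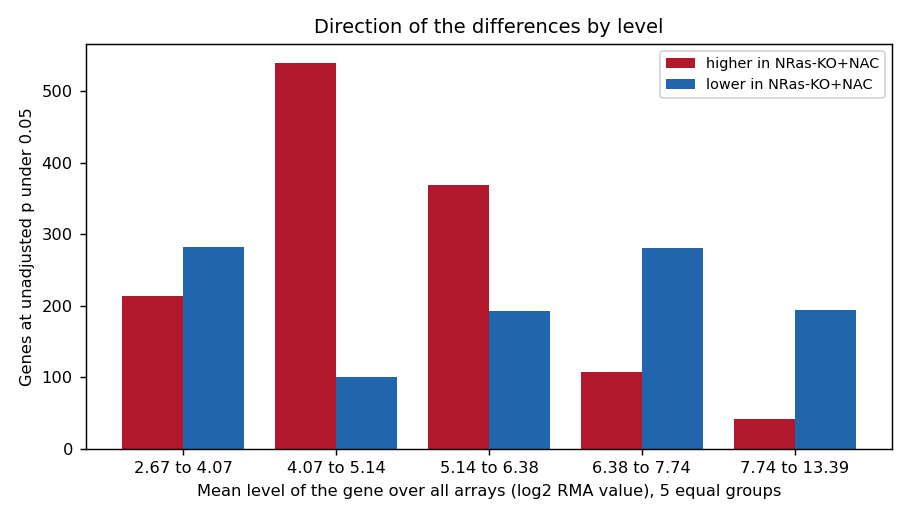
Number of genes at an unadjusted p under 0.05 (vertical axis) that were higher (red) or lower (blue) in NRas-KO+NAC than in Control+NAC, in 5 groups of 4436 genes ordered by mean level over all arrays (horizontal axis, log2 RMA value). Higher genes outnumber lower ones between 4.07 and 6.38, and lower genes outnumber higher ones below 4.07 and above 6.38.

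The 10 genes with the smallest p among those higher in NRas-KO+NAC were Gemin7, Sectm1b, Card14, Bhlhe23, Foxa3, Vmo1, Scp2d1, Fam219aos, Hoxb1 and Olfr792. Their differences ran from 0.38 to 0.60, with adjusted p-values of 0.11 to 0.13, and 8 of the 10 probe sets were in the dimmest 40% of the array (39.2% of all genes were). Gemin7, a subunit of the SMN complex that assembles spliceosomal snRNPs, read 6.56, 6.59 and 6.56 in NRas-KO+NAC, against 5.86, 6.30, 6.05 and 5.94 in Control+NAC. The knockout arrays agreed closely and all lay above the controls, by 0.53 ± 0.10 (SE, limma adjusted p = 0.11). Without Control+NAC replicate 2, the highest control, Gemin7 was called (0.62, adjusted p = 0.013). HRas-KO+NAC lungs read 6.39, 6.23 and 6.53 and DKO+NAC lungs 6.35, 6.41, 6.32 and 6.49, and both group means lay between those of NRas-KO+NAC and Control+NAC. Foxa3, a forkhead factor of endoderm and airway epithelium, read 6.30, 6.57 and 6.39 in NRas-KO+NAC, against 5.83, 5.80, 6.06 and 5.86 in Control+NAC (0.54, limma adjusted p = 0.12). Card14, a scaffold that activates NF-kB in keratinocytes, read 4.69, 4.91 and 4.82, against 3.98, 4.40, 4.49 and 4.24 in controls.

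The 10 lower genes with the smallest p were Nras, Cts8, Pik3r3, Zfp273, Mup21, Ly75, Rnf152, Timm22, Tfec and Spag17, with differences between -0.86 and -0.35 and 4 of 10 probe sets among the dimmest 40%. Pik3r3, the p55 gamma regulatory subunit of PI3 kinase, read 7.33, 7.13 and 7.16 in NRas-KO+NAC, against 8.08, 7.91, 7.77 and 7.53 in Control+NAC, a difference of -0.62 ± 0.12 (SE, limma adjusted p = 0.12). The groups did not overlap, and the control nearest to the knockouts was replicate 4, the T453 animal. HRas-KO+NAC lungs were at 7.20, 7.12 and 7.33 and DKO+NAC lungs at 7.29, 7.32, 7.41 and 6.93, so Control+NAC stood above every knockout group. Untreated lungs lay below Control+NAC as well, at 7.05, 7.16 and 7.18 in Control and 6.83, 6.87 and 7.09 in NRas-KO. Rnf152, a ubiquitin ligase of lysosomes that restrains mTORC1, was at 5.15, 5.75 and 5.17 in NRas-KO+NAC, against 6.24, 5.89, 6.31 and 6.40 in Control+NAC. It had the greatest difference of the 20 genes (-0.86). Spag17, a protein of the ciliary axoneme, was at 5.85, 5.92 and 5.97, against 6.27, 6.48, 6.31 and 6.67 in controls (-0.52).

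The other NAC knockouts are given beside a few of these 20 genes. All were set against the same 4 control arrays, from which the 20 were chosen to differ, so a like value is partly fixed by that choice. For Zfp273, a zinc finger gene, the difference from Control+NAC was -0.74 in NRas-KO+NAC, -0.74 in HRas-KO+NAC and -0.76 in DKO+NAC. For Timm22, a channel of mitochondrial protein import, it was -0.35, -0.32 and -0.37 in the same order of groups, and for Tfec, a factor of the MITF family, -0.63, -0.53 and -0.40. For Zfp273, Timm22 and Tfec the untreated Control arrays also lay below every Control+NAC array. They read 3.53, 3.70 and 3.47 for Zfp273, 5.37, 5.40 and 5.33 for Timm22, and 5.47, 5.14 and 5.16 for Tfec. Among the 20 genes, 12 had the same sign in the untreated NRas-KO minus Control difference. Bhlhe23, a basic helix-loop-helix factor, differed by 0.48 in NRas-KO+NAC and by only 0.05 in HRas-KO+NAC and 0.13 in DKO+NAC. Ly75, an endocytic receptor of dendritic cells, differed by -0.54, with -0.11 in HRas-KO+NAC and -0.28 in DKO+NAC.

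The lists of the Ras family and its pathway showed little beside Nras. Of 20 measured Ras family genes, 1 was higher and 2 lower at an unadjusted p under 0.05, and Nras was 1 of the lower ones. Rap2b, a Rap GTPase, differed by 0.28, and Rasd1, a Ras-like protein induced by glucocorticoid, by -0.68, from 5.51, 5.69 and 6.09 in NRas-KO+NAC against 6.91, 6.50, 6.03 and 6.30 in Control+NAC. The groups overlapped for both genes. None of 24 exchange factors and GTPase-activating proteins and none of 22 listed RAF, MEK, ERK and PI3 kinase genes reached an unadjusted p of 0.05. The PI3 kinase subunit gene Pik3r3, given above among the lower genes (-0.62), was not on that list. Braf was lower by an estimated 0.17, with 9.61, 9.75 and 9.69 in NRas-KO+NAC and 9.94, 9.83, 9.71 and 9.93 in Control+NAC. 

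Among 21 genes that ERK signalling induces, 13 estimates were below 0, the median was -0.15, and only Etv1 had an unadjusted p under 0.05, and it was lower (4.76% of the list, against 4.73% of all genes). Etv1, an ETS factor downstream of FGF and ERK, read 7.69, 7.19 and 7.62 in NRas-KO+NAC, against 8.0, 7.80, 7.93 and 7.66 in Control+NAC (-0.35, limma adjusted p = 0.47). Spred2, an inhibitor of RAF activation, read 7.89, 7.56 and 8.01, against 8.14, 8.23, 8.14 and 8.18, without overlap, and its interval ran from -0.73 to 0.02. NRas-KO+NAC replicate 2 was the lowest array for both genes, and without it the median of the list was 0.01. Of 25 immediate early genes none had an unadjusted p under 0.05. Nr4a3, an orphan nuclear receptor, read 7.88, 5.73 and 7.55 in NRas-KO+NAC, against 8.01, 7.85, 7.66 and 7.71 in Control+NAC, so replicate 2 alone was low. The other array of code start T195, DKO+NAC replicate 1, also read 5.68, while the remaining DKO+NAC arrays lay at 7.57 to 8.0.

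Cell cycle genes were the list that stood farthest from 0. Of 32 measured members, 30 estimates were below 0, the median was -0.35 (against -0.004 for all genes), and 13 (40.6%) were lower and none higher at an unadjusted p under 0.05, where 4.73% of all genes were lower. No member was called. Cdk1, the kinase that starts mitosis, read 7.15, 6.10 and 7.07 in NRas-KO+NAC, against 8.08, 7.48, 7.53 and 7.32 in Control+NAC. All knockout arrays lay below all controls, replicate 2 by the most, and the difference was -0.83 ± 0.29 (SE, limma adjusted p = 0.31). Rrm1, the large subunit of ribonucleotide reductase, which makes deoxyribonucleotides, read 7.81, 7.37 and 7.97, against 8.20, 8.20, 8.13 and 8.06 in controls, again without overlap (-0.43). Its small subunit Rrm2 was at 6.10, 5.35 and 5.76, against 6.58, 6.31, 6.62 and 5.93 (-0.63), and Mcm3, part of the replicative helicase, at 6.05, 6.12 and 6.46, against 6.94, 6.66, 6.42 and 6.65 (-0.46). For these 2 genes 1 control array reached into the range of the knockouts.

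The promoters of these 4 genes are shown because cell cycle genes share regulatory letters near their starts. Each runs 300 bases, from 250 before to 50 after the start, 5′ to 3′ on the gene's strand, in RefSeq on GRCm38.p6. Capitals mark CCAAT (the CCAAT box), TTTGAA (the cell cycle homology region) and TTTNNCGC (an E2F-type site), searched on both strands.
Cdk1 (chr10:69352863-69353162, minus strand): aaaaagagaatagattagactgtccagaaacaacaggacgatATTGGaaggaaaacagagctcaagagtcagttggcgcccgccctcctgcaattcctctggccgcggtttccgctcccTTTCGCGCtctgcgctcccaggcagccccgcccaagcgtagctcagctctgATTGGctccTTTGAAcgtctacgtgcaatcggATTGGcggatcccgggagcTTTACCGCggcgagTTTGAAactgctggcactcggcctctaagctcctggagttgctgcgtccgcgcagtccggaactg
Mcm3 (chr1:20820263-20820562, minus strand): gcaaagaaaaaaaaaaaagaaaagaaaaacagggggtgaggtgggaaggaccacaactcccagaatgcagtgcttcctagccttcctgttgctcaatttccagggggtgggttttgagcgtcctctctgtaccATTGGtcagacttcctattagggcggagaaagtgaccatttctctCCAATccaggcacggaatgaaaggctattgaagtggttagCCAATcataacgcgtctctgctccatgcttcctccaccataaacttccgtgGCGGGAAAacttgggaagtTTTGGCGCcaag
Rrm1 (chr7:102441445-102441744, plus strand): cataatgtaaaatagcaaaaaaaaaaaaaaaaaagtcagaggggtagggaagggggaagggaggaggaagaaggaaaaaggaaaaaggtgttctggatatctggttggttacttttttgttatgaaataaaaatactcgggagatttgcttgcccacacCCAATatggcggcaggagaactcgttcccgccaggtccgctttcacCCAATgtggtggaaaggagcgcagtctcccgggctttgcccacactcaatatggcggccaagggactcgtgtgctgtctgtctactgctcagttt
Rrm2 (chr12:24708004-24708303, plus strand): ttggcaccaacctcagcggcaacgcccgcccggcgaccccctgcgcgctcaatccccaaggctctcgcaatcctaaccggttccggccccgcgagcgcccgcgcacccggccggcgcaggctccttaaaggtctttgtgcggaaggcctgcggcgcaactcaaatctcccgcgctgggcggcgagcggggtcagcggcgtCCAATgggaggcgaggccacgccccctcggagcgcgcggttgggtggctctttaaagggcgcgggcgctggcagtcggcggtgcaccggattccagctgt

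Cdk1 held 2 TTTGAA, 2 E2F-type and 3 CCAAT matches, Mcm3 2 E2F-type and 3 CCAAT matches, Rrm1 2 and Rrm2 1 CCAAT match. RefSeq promoters were matched for 26 of the 32 measured cell cycle genes (27 promoters). CCAAT occurred in 81.5% of them and in 37.4% of all 32851 mouse promoters of the table, TTTGAA in 44.4% and 17.9%, and the E2F-type letters in 22.2% and 5.17%. A match describes these letters only.

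The cell cycle difference was uneven across arrays and code starts. The mean of the list, relative to each gene's mean over 28 arrays, was 0.08, -0.37 and 0.02 on NRas-KO+NAC arrays and 0.51, 0.27, 0.24 and 0.01 on Control+NAC arrays. The T195 knockout (replicate 2) was the lowest of the 7 arrays, the T445 controls were the 3 highest, and the T453 control lay within the range of the knockouts. The DKO+NAC array of code start T195 was also the lowest of its group, at -0.52, against -0.19, 0.07 and 0.06 on the others. Within T453, 1 array against 1, the list's median difference was -0.03, with 17 of 32 estimates below 0. These 2 arrays also differed in Xist, at 4.27 in the knockout and 10.83 in the control, so sex and genotype cannot be told apart there. With code start as a fixed block over the NAC arm the list's median was again -0.03, with 0 members lower at an unadjusted p under 0.05. Without NRas-KO+NAC replicate 2 the median was -0.23 and the 13 members became 1. Without Control+NAC replicate 1 they became 6, without Control+NAC replicate 2 they became 8, and without Control+NAC replicate 4 or NRas-KO+NAC replicate 1 they became 21 and 20. Each code start of the NAC arm held at least 2 of the groups, but NRas-KO+NAC and Control+NAC shared only T453. What the code start stands for was not tested.

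**Figure D4:**
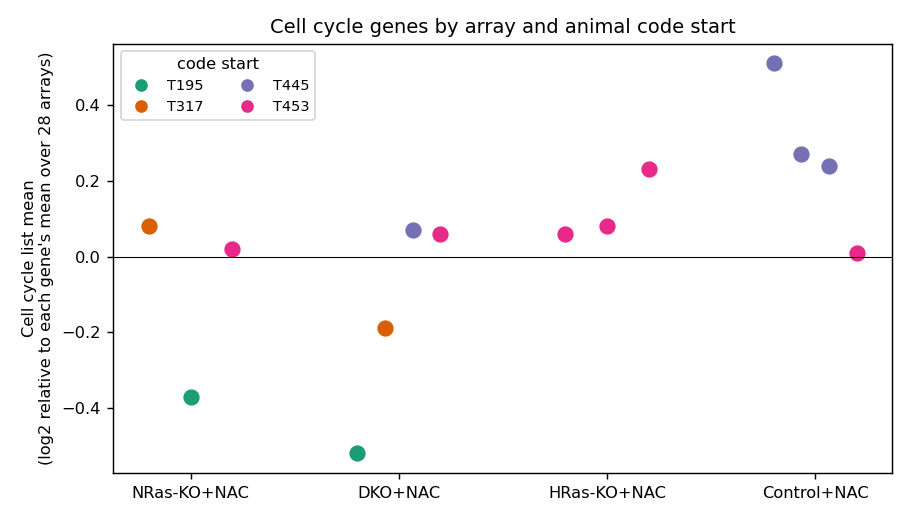
Mean of the 32 cell cycle genes on each NAC array (vertical axis, log2 relative to each gene's mean over all 28 arrays), by group, with colours for the start of the animal code. The T445 controls stand at 0.24 to 0.51, and both T195 arrays, NRas-KO+NAC replicate 2 and DKO+NAC replicate 1, are the lowest of their groups.

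Against the same 4 Control+NAC arrays the list's median was -0.39 in DKO+NAC and -0.15 in HRas-KO+NAC, and NRas-KO+NAC minus DKO+NAC gave 0.05. Without NAC the same 32 genes leaned the other way. The untreated NRas-KO minus Control median was 0.14, with 30 estimates above 0 (47.6% of all genes were below 0 in this comparison) and none at an unadjusted p under 0.05. The difference between the NRas effects of the 2 arms had a median of -0.53 over the list, and 9 members had an unadjusted interaction p under 0.05 (4.36% of all genes did), with none called. List means in the untreated arm were -0.22, 0.05 and 0.37 in NRas-KO and -0.19, -0.11 and 0.03 in Control, so the groups overlapped. These untreated groups were matched for code start, while the NAC groups were not, so NAC and code start cannot be told apart in the difference between arms.

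Across all genes the interaction, which asks whether the NRas effect differed with NAC, called no gene (966 at an unadjusted p under 0.05, 4.36%; smallest adjusted p 0.99). Its 5 smallest p-values belonged to Vmo1, the pseudogene Kif4-ps, the olfactory receptor Olfr1285, Cts8 and Brca2. Brca2, a mediator of homologous recombination, read 5.45, 5.62 and 5.21 in NRas-KO+NAC, against 5.84, 5.85, 6.05 and 5.87 in Control+NAC (-0.48), and the untreated difference was 0.15. The interaction was -0.63 ± 0.16 (SE, limma adjusted p = 0.99). Vmo1, a homologue of an egg membrane protein, differed by 0.38 with NAC and by -0.18 without, and its Control+NAC arrays (4.60 to 4.78) were the low ones.

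Genes of cholesterol and fatty acid synthesis leaned lower, with 24 of 26 estimates below 0, a median of -0.19 and 4 members lower at an unadjusted p under 0.05 (15.4%), where 51.2% of all estimates were below 0 and 4.73% of all genes were lower. They were Lss (lanosterol synthase, -0.62), Insig1 (a brake on SREBP processing, -0.69), Fasn (fatty acid synthase, -0.43) and Hmgcs1 (an early enzyme of the mevalonate pathway, -0.31), with limma adjusted p-values of 0.34 to 0.45. Insig1 read 9.88, 8.36 and 9.55 in NRas-KO+NAC, against 10.23, 9.71, 9.97 and 9.93 in Control+NAC, with replicate 2 again far below the rest. Without that array none of the 26 passed the unadjusted threshold, while 1 did without Control+NAC replicate 1 and 2 did without Control+NAC replicate 2. Within T453, where the 2 arrays differed in Xist as well, the median of the list was 0.02, and it was -0.02 with code start as a fixed block.

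Neutrophil genes had a median of -0.21, with 17 of 23 estimates below 0 and 2 lower (8.70%) at an unadjusted p under 0.05, where 4.73% of all genes were lower. Single arrays moved this list: its median was -0.41 with 7 lower without Control+NAC replicate 1, -0.41 with 1 lower without NRas-KO+NAC replicate 2, and -0.12 to -0.07 without Control+NAC replicate 2 or 3 or NRas-KO+NAC replicate 1 or 3. No member was lower at that threshold without Control+NAC replicate 3 or 4, without NRas-KO+NAC replicate 1, or with code start as a fixed block. With the fixed block the list's median was -0.14. Ly6g, the classical mouse neutrophil antigen, read 4.48, 4.40 and 4.67 in NRas-KO+NAC, against 5.00, 4.97, 5.27 and 5.29 in Control+NAC, without overlap (-0.61). Ltf, the granule protein lactoferrin, read 6.08, 6.31 and 6.25, against 6.01, 7.86, 7.11 and 7.09, so Control+NAC replicate 1 was as low as the knockouts (-0.80). The list means were -0.37, 0.07 and -0.40 in NRas-KO+NAC and -0.56, 0.29, 0.17 and 0.06 in Control+NAC. The untreated median was -0.23, close in size, and the median against DKO+NAC was -0.41. In whole lung, fewer cells of a type and less RNA per cell cannot be told apart.

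Lymphocyte genes leaned higher, with 20 of 28 estimates above 0 and 4 higher (14.3%) and none lower at an unadjusted p under 0.05, where 5.73% of all genes were higher. Nkg7, a granule protein of NK and cytotoxic T cells, read 6.13, 6.09 and 6.54 in NRas-KO+NAC, against 5.67, 5.76, 5.89 and 5.91 in Control+NAC (0.44, limma adjusted p = 0.25). The others were Cd8a (0.40), Thy1 (0.38) and Cd8b1 (0.25), and Cd8a lay at about 4 on all arrays. Mean levels of all 4 genes lay between 4.07 and 6.38, where higher genes outnumbered lower ones in general. After quantile normalization was applied again the list's median was 0.04, against 0.10 in the main fit, with 3 members higher. With code start as a fixed block 3 were higher and 1 lower. The 4 became 7 without NRas-KO+NAC replicate 1, 6 without Control+NAC replicate 1 and 2 without NRas-KO+NAC replicate 3, and with the dimmest 40% of probe sets left out 6 members remained, 3 of them higher. Macrophage genes had 20 of 27 estimates above 0 with 1 higher at that threshold, Cd163, a scavenger receptor (0.34). Among 38 chemokines and receptors, 4 were higher, Cxcl11, Ccl24 and Ccl6 with the smallest p, and 2 lower, among them Cxcl10 (-0.27). Of 29 interferon-stimulated genes and 17 genes of antigen presentation none had an unadjusted p under 0.05.

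Alveolar genes were nearly level. The surfactant and type 2 list of 26 had a median of 0.0 and the type 1 list of 18 a median of 0.02. Besides Fasn, no type 2 gene had an unadjusted p under 0.05. Sftpd, the surfactant collectin SP-D, read 10.21, 10.59 and 9.87, against 9.80, 9.85, 10.10 and 9.77 in controls, with overlap. Clic5, a chloride channel of type 1 cells, was the 1 type 1 gene past that threshold (0.25). Scgb1a1, the club cell secretoglobin, read 11.94, 12.05 and 11.43 in NRas-KO+NAC, against 11.16, 11.22, 11.62 and 11.39 in Control+NAC, a difference of 0.46 (limma adjusted p = 0.43). The T453 arrays of the groups read 11.43 and 11.39. Scnn1g, a subunit of the sodium channel that clears fetal lung fluid, read 10.34, 10.72 and 10.49, against 9.98, 10.12, 10.43 and 10.11 (0.36). It was the 1 gene past that threshold among 18 fluid clearance genes (5.56%, where 5.73% of all genes were higher). Of those 18 estimates 12 were below 0, with a median of -0.03. Among 23 ciliated airway genes 19 estimates were below 0, the median was -0.15, and 3 were lower at that threshold, where 4.73% of all genes were lower. They were Dnah11 (an axonemal dynein, -0.33), Ccdc113 (-0.32) and Mlf1 (-0.31). No member was lower at it without NRas-KO+NAC replicate 2 (median -0.09) or with code start as a fixed block (-0.10), 1 member was without Control+NAC replicate 4, and 2 were without Control+NAC replicate 1 or 2.

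The study's title names genes of sphingolipid metabolism and oxidative phosphorylation as raised in the double knockout. Of 42 sphingolipid genes, 4 were lower (9.52%, against 4.73% of all genes) and none higher at an unadjusted p under 0.05, with a list median of -0.02. Without Control+NAC replicate 1 there were 2 lower and 1 higher, and with code start as a fixed block 1 lower and 1 higher. Sphk1, which makes sphingosine 1-phosphate, read 6.34, 6.25 and 6.52 in NRas-KO+NAC, against 6.62, 6.72, 6.77 and 6.71 in Control+NAC, without overlap (-0.34 ± 0.10, limma adjusted p = 0.28). Its HRas-KO+NAC and DKO+NAC differences from the same controls were -0.01 each. The others were Sgms1 (a sphingomyelin synthase, -0.24), Galc (galactosylceramidase, -0.36) and Ormdl1 (a brake on serine palmitoyltransferase, -0.33). None of 33 complex I genes and none of 36 genes of complexes II to V passed that threshold, and both medians were -0.02. Of 34 glutathione and NRF2 genes 1 was lower, the aldehyde oxidase Aox1 (-0.39).

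Of 27 genes of the unfolded protein response, 5 (18.5%, against 4.73% of all genes) were lower at an unadjusted p under 0.05, while the list's median was -0.04. Among them were the endoplasmic reticulum chaperones Pdia3 (-0.34), Calr (-0.36) and Dnajb11 (-0.32), and Ddit4, a stress-induced inhibitor of mTORC1 (-0.58). For Pdia3, a disulfide isomerase, the arrays read 10.38, 9.86 and 10.19 in NRas-KO+NAC, against 10.42, 10.54, 10.54 and 10.44 in Control+NAC, and without NRas-KO+NAC replicate 2 no member was lower at that threshold. The same held with code start as a fixed block, and 3 were lower without Control+NAC replicate 1. In these fits, in that order, the list's median was -0.04, -0.06 and -0.02, so the counts fell while the median moved little. Fbn2, the fetal fibrillin of elastic fibres, read 6.56, 6.65 and 7.22, against 7.65, 7.39, 7.31 and 7.40, without overlap (-0.63, limma adjusted p = 0.24). Of 25 genes of glycolysis and hypoxia, 19 estimates were below 0, with a median of -0.14, and 1 member passed the unadjusted threshold. That gene, the hypoxia-induced carbonic anhydrase Car9, ran against the list and was higher by an estimated 0.51, with 5.62, 5.59 and 5.71 in NRas-KO+NAC and 5.33, 5.19, 4.85 and 5.17 in Control+NAC. Rps23, a protein of the small ribosomal subunit, read 7.09, 6.81 and 6.60, against 5.86, 5.73, 6.09 and 6.96, and was called when Control+NAC replicate 4, the high control, was left out (0.94, limma adjusted p = 0.019). That control is the T453 animal, and at 6.96 it lay above the T453 knockout, NRas-KO+NAC replicate 3, at 6.60.

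Of the 49 gene lists, none had a called member, 10 had no member at an unadjusted p under 0.05, and 37 had medians within 0.1 of 0. The medians ran from -0.35 for the cell cycle to 0.13 for cartilage. In the cartilage list 2 of 17 genes (11.8%, against 5.73% of all genes) were higher at that threshold, Matn3 (0.35) and Col2a1 (0.27). The mean level of Matn3 lay between 4.07 and 5.14, where higher genes outnumbered lower ones in general.

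**Figure D5:**
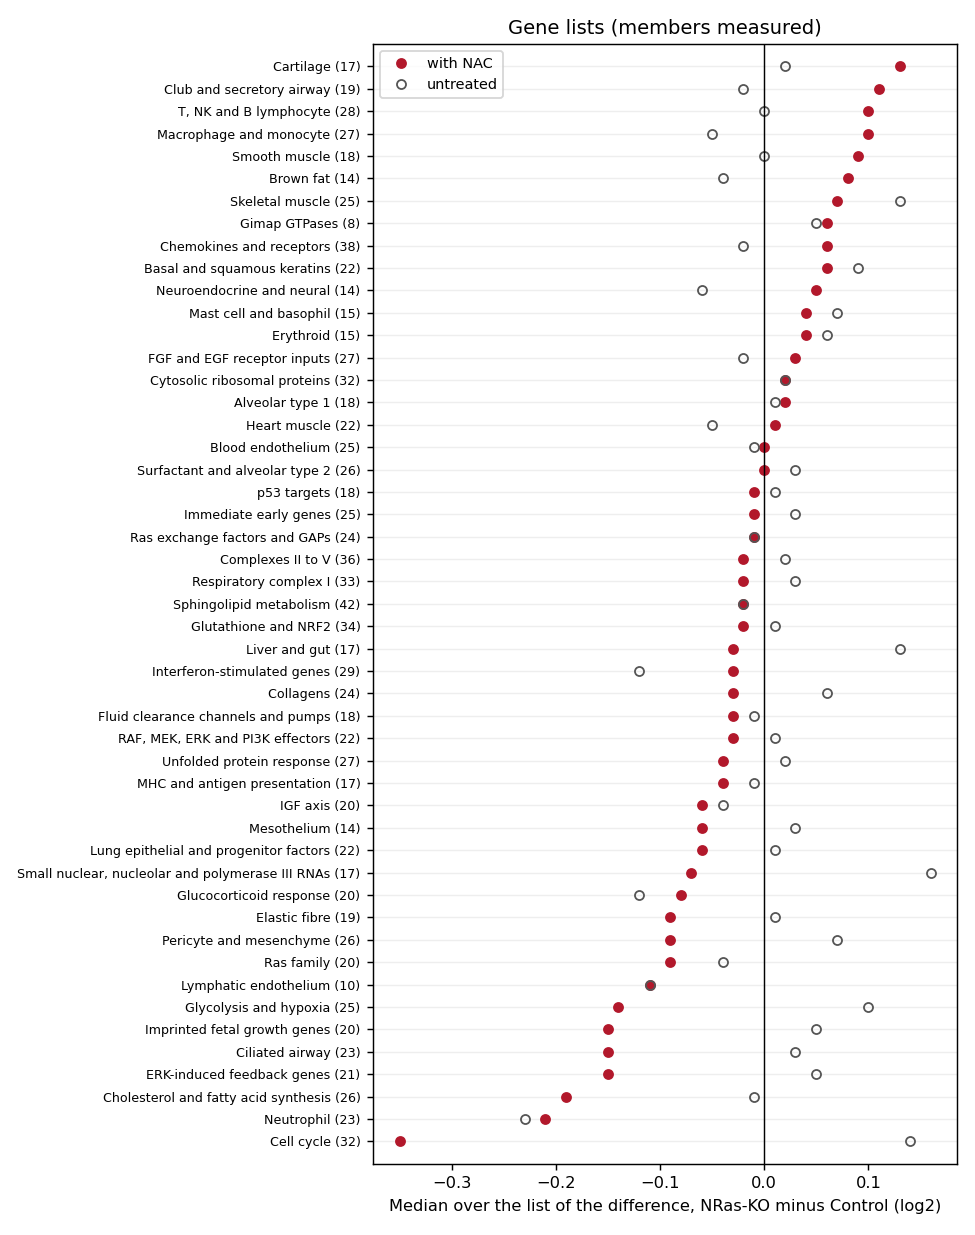
Median over each of 49 gene lists of the log2 difference between NRas-KO and Control (horizontal axis), with NAC (filled) and untreated (open), with the number of measured members in brackets. The cell cycle list lies lowest with NAC at -0.35 and above 0 without NAC at 0.14, and 37 lists lie within 0.1 of 0 with NAC.

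Set against the other knockouts of the NAC arm, NRas-KO+NAC differed in no called gene. Against HRas-KO+NAC, 1438 genes (6.48%) had an unadjusted p under 0.05 and the smallest adjusted p was 0.23. It belonged to the olfactory receptor Olfr360 (2.94 in NRas-KO+NAC and 3.45 in HRas-KO+NAC on average), followed by Nras (-0.59 ± 0.12, SE, limma adjusted p = 0.46), Olfr1198, Tas2r119 and Olfr792, and apart from Nras these are sensory receptor genes at levels between 2.9 and 5.4. All HRas-KO+NAC arrays had low Xist and code start T453. Against DKO+NAC, 826 genes (3.72%) had an unadjusted p under 0.05 and the smallest adjusted p was 1.00. Cd79a, a chain of the B cell receptor complex, had the smallest p, with 4.07, 4.08 and 4.16 in NRas-KO+NAC, against 4.47, 4.71, 4.55 and 4.50 in DKO+NAC (-0.46). Terf2ip, a telomere protein, read 7.83, 7.83 and 7.76, against 7.35, 7.49, 7.57 and 7.42 (0.35). The groups did not overlap for either gene, and over all genes the groups of this comparison did not overlap in 3.47%.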

How the data were processed

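Biotin-labelled total RNA of 28 lungs was measured on 1-colour arrays, per the labels' protocols. The authors deposited log2 values, 1 per probe set and array, and the submitters' processing notes name RMA and affy without versions. Nothing used here gives array batches. The deposited table held 41345 probe sets. Of these, 23521 had 1 gene symbol in the platform annotation, 1814 several and 16010 none listed, and each gene was read from its brightest probe set, giving 22180 genes (1082 with several probe sets). Medians of single arrays ran from 5.25 to 5.41. The small number of arrays sets the precision.

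All 28 arrays entered 1 model with 8 groups in limma 3.58.1 under R 4.3.3 (20 residual and 5.95 prior degrees of freedom), and p-values were adjusted over all genes. Adjusted p-values in the text come from this fit. A permutation test of 3 arrays against 4 cannot go below a two-sided p of 0.057, so single genes rest on limma. Groups came from the source labels, each array being 1 animal. Replicate numbers did not pair the arrays (correlations of deviations 0.197, 0.084 and -0.185).

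The comparison, the 49 lists (1114 of 1222 entries measured) and the tests were chosen with earlier results of these data known. Named genes were Nras, the 10 smallest p in each direction (predicted genes and clone names left out), the 5 smallest p of each other comparison and the 4 smallest p of each list, and Sftpc, Alb and Xist as checks. Phtf1, Gpa33 and Gm15628 were named after their values were seen. Alternatives covered the arrays in the fit, dim probe sets, normalization, moderation, weights, code start, replicate number, sex, muscle genes and each array left out. Some genes are not reported here.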

Additional observations from a re-analysis of the deposited data

Results flagged for a closer look

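In the fit over all 41345 probe sets, 6 were past an adjusted p of 0.05 in limma, all outside the 22180 rows that stand for genes, and they are given by probe set number. Probe set 17204475, unlisted in the annotation, read 5.08, 4.09 and 5.61 in NRas-KO+NAC, against 6.45, 6.84, 6.90 and 6.84 in Control+NAC, a difference of -1.83 ± 0.27 (SE, limma adjusted p = 0.023). It averaged 5.91 in HRas-KO+NAC, 6.25 in DKO+NAC, 6.22 in untreated NRas-KO and 6.29 in untreated Control. Probe set 17448803, also unlisted, read 8.61, 8.75 and 9.0, against 9.57, 9.38, 9.83 and 9.78 (-0.86, limma adjusted p = 0.047). Probe sets 17536221 and 17536223 carry the same several symbols and identical values, 5.00, 4.97 and 4.85 against 4.35, 4.56, 4.35 and 4.41 (0.52 each), so they are 1 measurement. Probe set 17446434, with several symbols, differed by 0.47, and probe set 17268240, the dimmer of the pair of probe sets of the noncoding RNA 4833417C18Rik, by 0.55.

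Single Control+NAC arrays stood apart from the other 3 by Dixon's test for Sectm1b and for 3 list means, among 69 genes and lists checked, and chance alone flags about 1 in 20 such groups. Sectm1b read 3.76 in replicate 3, against 3.51 to 3.53. The alveolar type 1 list mean was -0.18 in replicate 4, against -0.05 to -0.04, and the chemokine list mean was -0.09 there, against -0.02 to -0.01. The IGF list mean was 0.03 in replicate 2, against -0.13 to -0.12.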

How the results depend on the processing

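The count of 0 called genes held in 23 of 29 alternatives for NRas-KO+NAC against Control+NAC. It was 1 (Nras) without DKO+NAC replicate 4 in the fit, and 0 to 4 with each array of the 2 groups left out in turn. Without Control+NAC replicate 2 the 4 were Gemin7, Gpa33 and Gm15628 (higher) and Cts8 (lower), and without Control+NAC replicate 4 the 1 was Rps23. Alternatives added after seeing the data gave 6 over all 41345 probe sets and 1 (Nras) in the mean of the NAC and untreated differences, also 1 without the dimmest 40%. The interaction gave 0 to 2 with arrays left out (2 without NRas-KO replicate 1). The comparisons with HRas-KO+NAC and DKO+NAC gave 0 in every alternative run. The replicate block, fitted on the arrays of the groups compared, gave 0 calls and 1560 genes at an unadjusted p under 0.05, against 1704 on those arrays without the block.

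Nras ran from -0.68 to -0.47 over the settings, with adjusted p-values of 0.0038 to 0.99. The main fit called no gene, so it held no call that an alternative could turn round. Of 5914 pairs of a named gene and an alternative, 6 were called, and 45 uncalled estimates changed sign. Without NRas-KO+NAC replicate 2 the genes at an unadjusted p under 0.05 numbered 1525. Medians of the cell cycle list ran from -0.47 to -0.03, of the cholesterol list from -0.30 to 0.05 and of the neutrophil list from -0.56 to -0.07.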
